A study of Rattus norvegicus with 12 samples.

Results

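Aminoacyl-tRNA synthetases were examined in primary rat oligodendrocyte precursor cells (OPCs) kept at low oxygen (mild-hypo-OPCs) or in room air (standard OPCs). The set was given as a list of 35 gene symbols, 19 for enzymes of the cytosol and 16 for enzymes of mitochondria whose symbols end in 2, and members were found in the count table by symbol alone, without use of any measured value. A row was found for 34 of the 35 among the 30562 genes of the table, and Hars2 was not analysed here.

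The study asked how oxygen level alters the transcriptome of OPCs, the cells that proliferate in the brain and mature into myelinating oligodendrocytes. Bulk RNA-seq was performed on 6 mild-hypo-OPC libraries and 6 standard OPC libraries, all from wild-type brain. Per the study's methods, the cells came from cerebral cortices of Sprague-Dawley rats at postnatal day 1 or 2, were purified by shaking and differential adhesion, and were grown with FGF-2 and PDGF-AA. The mild-hypo-OPCs were held at 5% inspired oxygen (FiO2), for 6 hours by the labels whereas the methods describe mild hypoxia of 6 days, so the duration behind these libraries is uncertain. Both groups were purified OPC cultures outside the brain, in which markers of other neural cells were also measured, and the labels do not say whether the libraries of a group came from separate cultures, so p-values measure the spread between libraries, which may be technical. The paper gives fewer biological replicates per group for this experiment than the libraries deposited, so some libraries may share a culture, and n here counts libraries.

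Each aminoacyl-tRNA synthetase joins 1 amino acid to its matching tRNAs, in a reaction that uses ATP, and the charged tRNAs then feed the ribosome. The cytosol and the mitochondrion are served by largely separate enzymes, all encoded in the nucleus, which fall into classes I and II by the fold of the catalytic domain. Glycyl- and lysyl-tRNA synthetase are exceptions, since Gars1 and Kars1 supply both compartments. In many cell types a shortage of amino acids activates the kinase Gcn2 and the transcription factor Atf4, and several cytosolic synthetase genes are known targets of Atf4. Mutations in several synthetase genes, mitochondrial ones among them, cause disorders of white matter in people.

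Totals were 4111669 to 9022324 counts a library in mild-hypo-OPCs but 1356079 to 2797513 in the controls, so depth moved with the condition and the contributions of each cannot be told apart. A gene was tested if it exceeded 10 CPM (its count scaled to a common library total) in at least 1 library, which left 8938 genes. Calls at an adjusted p under 0.05 numbered 626 higher in mild-hypo-OPCs (7.00%) and 1520 lower (17.0%) (edgeR's quasi-likelihood test with Benjamini-Hochberg adjustment over all genes tested). The 7 OPC markers, Pdgfra and Olig2 among them, summed to 3680 to 4270 CPM under mild hypoxia and 3050 to 3790 CPM in room air, and none was at 0. The 7 microglial markers summed to 38.4 to 54.3 CPM against 23.7 to 38.6 CPM, the 6 neuronal markers to 339 to 397 CPM against 253 to 331 CPM, and the 7 astrocyte markers to 831 to 974 CPM against 773 to 893 CPM. Of the 8 vascular and mesenchymal markers, 7 had a row and these summed to at most 2.45 CPM in any library, with 1 at 0 throughout. Single markers of a list could differ from its sum. Among 6 tested astrocyte markers 2 were called higher and 1 lower. Called higher, with none lower, were 2 of 2 tested microglial, 1 of 4 neuronal and 1 of 7 OPC markers, against 7.00% of all genes tested. The neuronal sums did not overlap between the groups and the microglial sums overlapped barely, both being higher in mild-hypo-OPCs, and their part in the results below was not tested. In bulk samples, fewer cells of a type and less RNA per cell cannot be told apart.

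All 19 cytosolic synthetases were measured well in these cells, passing the filter in each of the 12 libraries. In mild-hypo-OPCs 3 of the 19 were called higher (15.8%, where 7.00% of all genes tested were called higher), and 0 were called lower (17.0% of all genes tested were called lower). At an unadjusted p under 0.05, 6 of the 19 differed. The 3 were the alanyl, methionyl and tryptophanyl enzymes Aars1, Mars1 and Wars1. Of the 19 log2 fold changes, 13 were positive and 6 negative, with a median of 0.12 and a range of -0.11 to 0.32, while the median over all genes tested was -0.003. The shifts were therefore small for every cytosolic synthetase.

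Aars1 encodes alanyl-tRNA synthetase, which also removes wrongly attached serine from its tRNA. Its level, in CPM scaled by trimmed mean of M values (TMM), was 173 at the lowest, 186 at the median and 204 at the highest in mild-hypo-OPCs, and 130, 151 and 160 in standard OPCs. Every mild-hypo-OPC library lay above every standard OPC library. The log2 fold change was 0.32 ± 0.08 (SE, n = 6 per group, 95% confidence interval 0.17 to 0.48), with an adjusted p of 0.00417 by edgeR's quasi-likelihood test.

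Mars1 encodes methionyl-tRNA synthetase, which charges both the initiator tRNA and the tRNA for internal methionines. Its scaled level was 69.6, 72.7 and 79.2 CPM (lowest, median, highest) in mild-hypo-OPCs and 52.9, 60.3 and 66.5 CPM in standard OPCs. Here too the groups did not overlap. The log2 fold change was 0.30 ± 0.08 (SE, n = 6 per group, 95% confidence interval 0.13 to 0.47), with an adjusted p of 0.0104 by edgeR. Aars1 and Mars1 were thus the 2 of 19 cytosolic synthetases with all mild-hypo-OPC libraries above all standard OPC libraries, a separation held by 2.82% of all genes tested. None of the 19 showed the opposite separation, held by 5.57% of all genes tested.

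Wars1 encodes tryptophanyl-tRNA synthetase, an enzyme that interferon gamma is known to induce in many cell types. Its scaled level was 85.6, 87.6 and 93.3 CPM in mild-hypo-OPCs and 65.9, 70.4 and 87.0 CPM in standard OPCs. The mild-hypo-OPC libraries were tightly grouped, whereas 2 standard OPC libraries reached their range. The log2 fold change was 0.24 ± 0.08 (SE, n = 6 per group), with an adjusted p of 0.0471 by edgeR, just inside the threshold. Of 10 interferon-induced genes examined, such as Irf1, Psmb9 and Mx1, 9 had a row and none of these passed the filter for testing. They summed to 5.64 to 10.8 CPM under mild hypoxia and 8.21 to 13.6 CPM in room air.

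The Wars1 call was lost in 15 of 27 alternative analyses. None of the 15 reversed its sign, but its value was 0.00 with the log2 total count as a covariate. The 15 included omission of any one of mild-hypo-OPC replicates 1, 2, 4 and 6 or standard OPC replicates 3 to 6. These omissions gave adjusted p from 0.0502 to 0.101 (edgeR). The Aars1 and Mars1 calls held in all 12 analyses that left out 1 library. Neither was called with replicates 1 to 3 only (log2 fold changes 0.27 and 0.34, adjusted p = 0.147 and 0.103, edgeR). Aars1 was called with replicates 4 to 6 only (adjusted p = 0.0127, edgeR) and Mars1 was not (0.28, adjusted p = 0.142, edgeR). With every library thinned to the smallest total, Mars1 remained called and Aars1 did not (log2 fold change 0.26, adjusted p = 0.0801, edgeR). The thinning was a single random draw of counts, and the spread between draws was not measured. With the log2 total count as a covariate, no synthetase was called, nor was any gene called higher, and 43 genes were called lower. The values then differed among the 3 genes, with Mars1 at 0.50, Aars1 at 0.14 and Wars1 at 0.00.

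**Figure D1:**
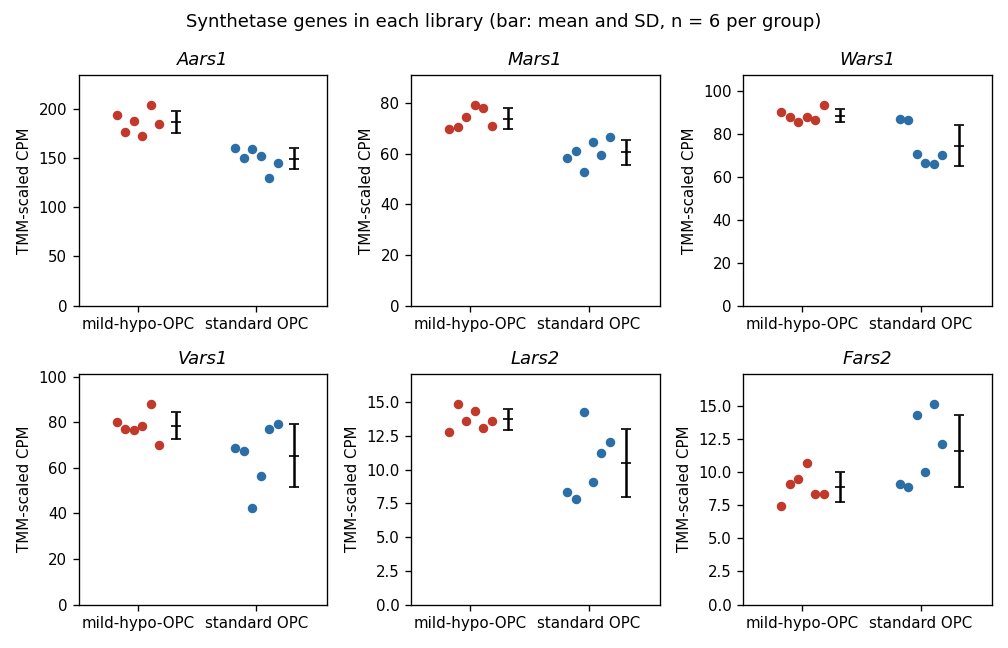
TMM-scaled CPM (y axis, from 0) of 6 synthetase genes in the 6 mild-hypo-OPC libraries (red) and the 6 standard OPC libraries (blue), 1 point per library, with the mean and SD as a bar. The groups do not overlap for Aars1 and Mars1, and they overlap for Wars1, Vars1, Lars2 and Fars2.

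Among the 16 cytosolic synthetases that were not called, Vars1, for valyl-tRNA synthetase, had the largest positive value. Its scaled level was 70.1, 77.7 and 88.2 CPM in mild-hypo-OPCs and 42.4, 68.1 and 79.4 CPM in standard OPCs. The standard OPC libraries were widely spread, and the log2 fold change of 0.27 ± 0.11 (SE, n = 6 per group) had an adjusted p of 0.093 by edgeR. Qars1, for glutaminyl-tRNA synthetase, had the lowest value of the cytosolic set, a log2 fold change of -0.11 ± 0.08 (SE, n = 6 per group) with an adjusted p of 0.35 by edgeR. Its level was 53.9, 57.3 and 62.2 CPM in mild-hypo-OPCs and 57.4, 60.9 and 69.3 CPM in standard OPCs, ranges that overlapped.

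Eprs1, which encodes a fused enzyme that charges both glutamyl and prolyl tRNAs, had the most counts of those not called, 6702 over all libraries. Its level was 115, 135 and 169 CPM in mild-hypo-OPCs and 93.7, 127 and 143 CPM in standard OPCs, a log2 difference of 0.18 ± 0.11 (SE, n = 6 per group) that did not pass (adjusted p = 0.24, edgeR). The standard error of Eprs1 was larger than that of Aars1 (0.08), although both genes were deeply counted.

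The remaining cytosolic members had small values in either direction, and none passed the test. The glycyl and isoleucyl enzymes Gars1 and Iars1 both had a log2 fold change of 0.23, with adjusted p of 0.0638 and 0.116 (edgeR). For both, the standard OPC median was exceeded by 6 of 6 mild-hypo-OPC libraries, although the groups overlapped. Gars1 passed the test without mild-hypo-OPC replicate 5 or without standard OPC replicate 1, as Vars1 did without mild-hypo-OPC replicate 6. Without standard OPC replicate 3, the lowest of its group, the Vars1 value was 0.17. Values of 0.11 to 0.15 were found for Lars1, Cars1, Yars1, Tars1 and Nars1, the leucyl, cysteinyl, tyrosyl, threonyl and asparaginyl enzymes. Hars1, for histidyl-tRNA synthetase, had 0.02. Small negative values were found for Farsa and Farsb, the alpha and beta subunits of phenylalanyl-tRNA synthetase (-0.05 and -0.07), for the seryl enzyme Sars1 (-0.07), and for the lysyl and arginyl enzymes Kars1 and Rars1 (-0.08 each). The 2 subunits of the 1 enzyme built from separate genes thus had nearly equal values.

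These values are relative to the scaling of the libraries. TMM factors were 1.08 to 1.23 under mild hypoxia and 0.809 to 0.945 in room air. With library size alone, the middle log2 value over the tested genes became 0.43, 61.7% of genes were called higher and 4.53% lower, and all 19 cytosolic synthetases were called higher with a median of 0.56, so the 6 negative members turned positive but stayed, at 0.33 to 0.38, below that middle value. With upper-quartile factors the median of all genes was 0.06 and 12.7% of all genes tested were called higher. Of the 19, 6 were then called higher, Gars1, Iars1 and Vars1 in addition to the 3 above.

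**Figure D2:**
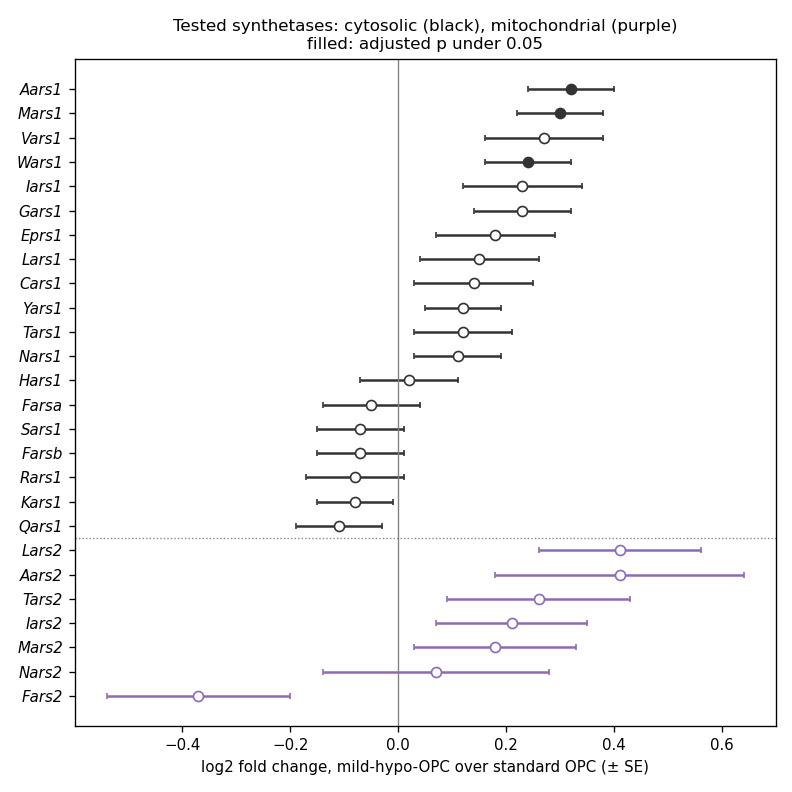
Log2 fold change of the 26 tested synthetases, mild-hypo-OPC over standard OPC (x axis), with the standard error as a bar, and filled points for an adjusted p under 0.05. The 19 cytosolic members (black) run from -0.11 to 0.32 with 3 filled points, and the 7 mitochondrial members (purple) run from -0.37 to 0.41 with wider errors and none filled.

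Summed over the cytosolic set, the libraries held 1470 to 1590 CPM under mild hypoxia (median 1520) and 1370 to 1490 CPM in room air (median 1390). The mean log2 CPM of the 19 genes was 6.21 ± 0.03 (SD, n = 6) in mild-hypo-OPCs and 6.10 ± 0.04 (SD, n = 6) in standard OPCs, a difference of 0.11 on the log2 scale. Over all genes tested the same measure was 4.96 ± 0.01 against 5.02 ± 0.01 (SD, n = 6 each). The difference of the cytosolic set and that of all genes (-0.05) thus had opposite signs, both small.

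By structural class, 2 of the 10 class I enzymes (Mars1 and Wars1) and 1 of the 9 class II enzymes (Aars1) were called higher, where 7.00% of all genes tested were, and the median log2 fold changes were 0.16 and 0.02. The difference between the classes was not tested. Of 7 members that belong to the multi-tRNA synthetase complex, a cytosolic particle of synthetases held together by scaffold proteins, 1 (Mars1) was called higher, and the median was 0.15. The scaffold genes of this complex are not synthetases and had negative values. Eef1e1 (AIMP3), the scaffold protein that binds Mars1, was 32.3, 37.5 and 39.5 CPM in mild-hypo-OPCs and 44.3, 81.3 and 95.2 CPM in standard OPCs, with no overlap between the groups. It fell, with a log2 fold change of -0.95 ± 0.15 (SE, n = 6 per group) and an adjusted p of 0.000275 by edgeR. Standard OPC replicates 1 and 2, the deepest of that group, were at 44.3 and 48.6 CPM against 81.1 to 95.2 CPM in the other 4. Replicate 3, with 2240615 counts against 2295080 in replicate 2, was nevertheless at 81.5 CPM. With the log2 total count as a covariate the Eef1e1 value was -0.17 (adjusted p = 0.942, edgeR). Depth moved with the condition, so their contributions to this value cannot be told apart. The other two, Aimp1 and Aimp2, had log2 fold changes of -0.24 and -0.07 and did not pass (adjusted p = 0.211 and 0.661, edgeR). The enzyme Mars1 and its scaffold partner Eef1e1 therefore differed between the groups in opposite directions.

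The mitochondrial synthetases were sparsely counted. Their rows held 111 to 1887 counts over all 12 libraries, against 1524 to 8734 for the cytosolic rows, and the median member had 11.5 counts in a standard OPC library and 43.5 in a mild-hypo-OPC library. Of 15 members with a row, 7 passed the filter and 8 did not. Iars2 alone passed it in all 12 libraries, and Aars2 passed it only through mild-hypo-OPC libraries, 4 of them. Mars2 passed it in 6 mild-hypo-OPC libraries and 1 standard OPC library, and Lars2 and Nars2 in 6 and 3 each. For Tars2 these numbers were 6 and 5, and for Fars2 4 and 3. Values over the members that passed are therefore given as a description.

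None of the 7 tested mitochondrial members was called higher or lower (0 of 7 in each direction, against 7.00% and 17.0% of all genes tested), and 2 differed at an unadjusted p under 0.05. Of their log2 fold changes 6 were positive and 1 negative, with a median of 0.21. Without any filter, the median over all 15 was 0.13, against 0.05 over all genes then tested, and again none was called. Standard errors were 0.14 to 0.23 on the log2 scale, against 0.07 to 0.11 in the cytosolic set. Errors were thus wider in the mitochondrial set.

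Lars2, for mitochondrial leucyl-tRNA synthetase, had the largest positive value. Its level was 12.8, 13.6 and 14.9 CPM in mild-hypo-OPCs and 7.84, 10.2 and 14.3 CPM in standard OPCs. All 6 mild-hypo-OPC libraries were above the standard OPC median, but the groups overlapped. The log2 fold change was 0.41 ± 0.15 (SE, n = 6 per group), with an adjusted p of 0.06 by edgeR. Lars2 passed the test without standard OPC replicate 3, the highest of its group, and under 4 other alternatives, among them upper-quartile factors and a filter of at least 10 counts in every library. With every library thinned to the smallest total, by contrast, its log2 fold change was 0.04 (adjusted p = 0.938, edgeR), in that single random draw.

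Aars2, for mitochondrial alanyl-tRNA synthetase, had the same log2 fold change of 0.41 with a larger error (SE 0.23, n = 6 per group, adjusted p = 0.204, edgeR). Its level was 7.92, 9.38 and 12.3 CPM in mild-hypo-OPCs and 3.30, 7.89 and 11.5 CPM in standard OPCs. Its value was 0.27 without standard OPC replicate 5 and 0.61 without replicate 2. Fars2, for the single-chain mitochondrial phenylalanyl-tRNA synthetase, was the 1 tested member with a negative value. Its level was 7.42, 8.74 and 10.7 CPM in mild-hypo-OPCs and 8.89, 11.1 and 15.2 CPM in standard OPCs, and all 6 mild-hypo-OPC libraries were below the standard OPC median. The log2 fold change was -0.37 ± 0.17 (SE, n = 6 per group), which did not pass (adjusted p = 0.134, edgeR).

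Iars2, for mitochondrial isoleucyl-tRNA synthetase, had the most counts of the mitochondrial set. Its level was 31.5, 42.3 and 42.9 CPM in mild-hypo-OPCs and 18.2, 36.7 and 40.1 CPM in standard OPCs, with a log2 fold change of 0.21 ± 0.14 (SE, n = 6 per group, adjusted p = 0.277, edgeR), which was 0.12 without standard OPC replicate 4. The remaining tested members were the threonyl, methionyl and asparaginyl enzymes Tars2, Mars2 and Nars2, with log2 fold changes of 0.26, 0.18 and 0.07, none of which passed. The methionyl pair Mars1 and Mars2 thus had 0.30 and 0.18, the alanyl pair Aars1 and Aars2 had 0.32 and 0.41, and in each pair only the cytosolic gene passed the test. The standard errors were 0.15 for Mars2 and 0.23 for Aars2, against 0.08 for each cytosolic partner, and Aars2 passed the filter only through mild-hypo-OPC libraries. The difference within a pair was not tested.

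The 8 mitochondrial members below the filter were Cars2, Ears2, Pars2, Rars2, Sars2, Vars2, Wars2 and Yars2. Their counts ran from 1 (Ears2) to 25 (Cars2) in standard OPC libraries and from 5 (Yars2) to 87 (Sars2) in mild-hypo-OPC libraries. Fitted with no filter, their log2 fold changes ran from -0.89 to 0.31. Values were negative for Yars2, Wars2 (-0.27), Cars2 (-0.20), Rars2 (-0.08) and Vars2 (-0.03). They were positive for Sars2 (0.31), Ears2 (0.17) and Pars2 (0.13). The lowest belonged to Yars2, for mitochondrial tyrosyl-tRNA synthetase, at -0.89 ± 0.35 (SE, n = 6 per group), with an adjusted p of 0.0898 by edgeR from 5 to 18 counts a library under mild hypoxia and 2 to 11 in room air. No difference was detected for these 8 genes.

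**Figure D3:**
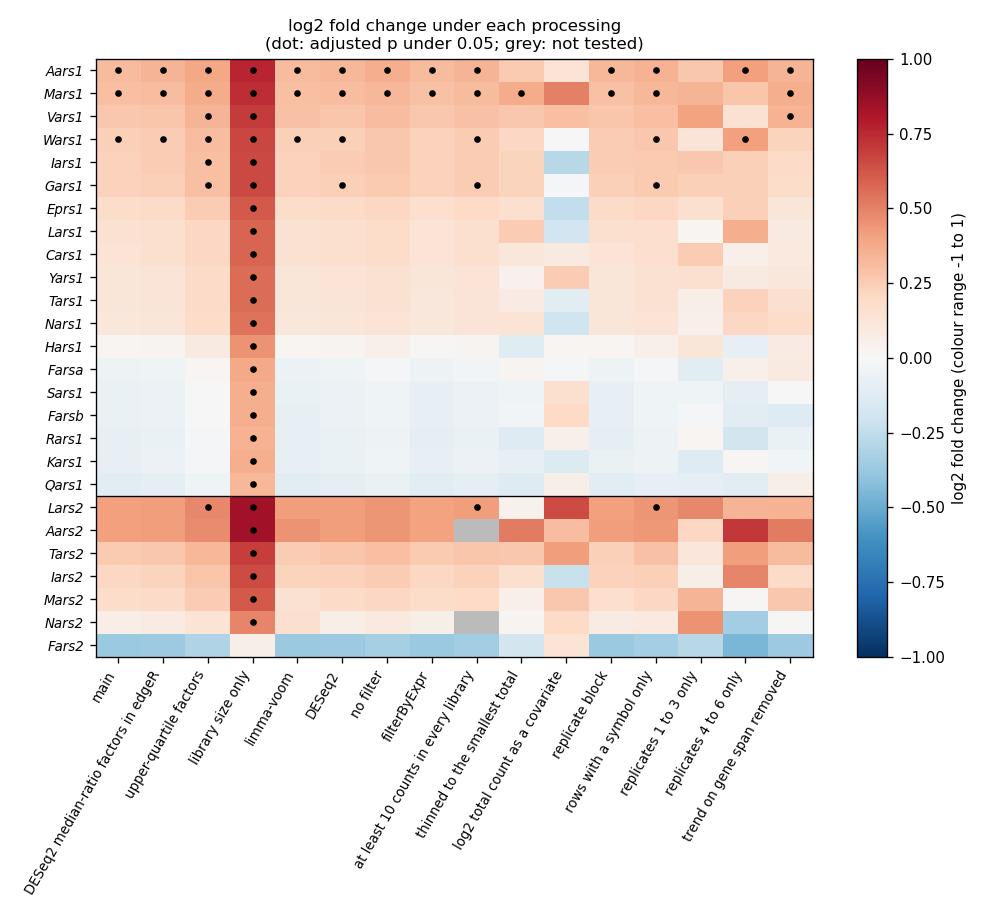
Log2 fold change (colour, -1 to 1) of the 26 tested synthetases (rows) under the reported analysis and 15 alternatives (columns), with a dot for an adjusted p under 0.05 and grey where a gene was not tested. Dots recur for Aars1 and Mars1, the column for library size alone is red with dots for 25 of the 26 genes, and the column with total count as a covariate holds no dot.

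Promoter sequences were examined because several cytosolic synthetases carry a known binding element of Atf4 with C/EBP proteins. RefSeq promoters of assembly GRCr8, 250 bases before to 50 bases after the annotated start of each gene, were given for 17 of the 19 cytosolic members (not Gars1 and Rars1) and for all 16 mitochondrial members. The core of the element, TGATGNAA, was searched on both strands. It was found in 7 of the 17 cytosolic promoters (Aars1, Cars1, Iars1, Mars1, Nars1, Tars1 and Yars1) and in 0 of the 16 mitochondrial promoters, while 4.16% of all 27457 genes with a promoter held it.

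The Aars1 promoter, the 250 bases before the start at chr19:55908232-55908481 on the + strand of GRCr8, is shown because Aars1 had the largest change of the cytosolic set, and capitals mark the TGATGNAA element, here on the opposite strand, and the palindromic E-box CACGTG.
Aars1: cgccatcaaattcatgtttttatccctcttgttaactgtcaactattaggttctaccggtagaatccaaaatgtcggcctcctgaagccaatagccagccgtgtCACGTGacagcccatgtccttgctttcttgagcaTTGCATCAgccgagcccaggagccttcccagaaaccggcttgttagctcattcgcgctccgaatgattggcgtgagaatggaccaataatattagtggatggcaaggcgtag

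The element of the other called member with one, Mars1, and of 4 members that were not called is shown with its flanking bases, in the orientation of the gene and with the element in capitals. Coordinates are of GRCr8, at chr7:65023752-65023781 for Mars1, chr17:15193658-15193687 for Iars1, chr2:62114811-62114840 for Tars1 and chr1:208225334-208225363 for Cars1, all on the - strand, and chr5:146820190-146820212 on the + strand for Yars1.
Mars1: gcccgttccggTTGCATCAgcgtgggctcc
Iars1: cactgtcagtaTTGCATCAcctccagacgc
Tars1: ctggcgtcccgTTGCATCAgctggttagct
Cars1: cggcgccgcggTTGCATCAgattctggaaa
Yars1: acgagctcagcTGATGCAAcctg

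The same 8 bases, TTGCATCA or its reverse complement TGATGCAA, stood in all 5 of these windows and in the Aars1 promoter. Aars1 had a second match from base 10 to 17 after the start. In Mars1 the match began 17 bases before the start, in Iars1 24, in Tars1 27 and in Nars1 14, whereas in Cars1 and Yars1 it lay after the start. The 7 genes with the element had log2 fold changes of 0.11 to 0.32, all positive, with a median of 0.14 and 2 called higher. The 10 cytosolic genes with a promoter and no match had a median of -0.02, with 5 positive, 5 negative and 1 called higher, Wars1. Gars1 (0.23) and Rars1 (-0.08), with no promoter given, were in neither group. The element was chosen with earlier results of these data known, and the difference between genes with and without it was not tested. Over all 142 tested genes with the element the median was 0.05, with 12% called higher and 12.7% lower. These shares, and the counts of the 7 and 10 genes above, stand beside 7.00% higher and 17.0% lower over all genes tested. A match describes the letters in this window, and occupancy was not measured.

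The E-box CACGTG was found in 5 of the 17 cytosolic promoters (Aars1, Farsb, Iars1, Tars1 and Vars1) and in 1 of the 16 mitochondrial promoters (Ears2), and in 7.08% of all genes. The cores of the hypoxia response element, ACGTG and GCGTG, of which the first is contained in the E-box, were in 9 and 11 of the 17 cytosolic promoters and in 9 and 12 of the 16 mitochondrial promoters. These shorter words were common, in 20.9% and 32.4% of all genes. The motif shares are over all 27457 genes with a promoter, whether or not they were tested here.

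**Figure D4:**
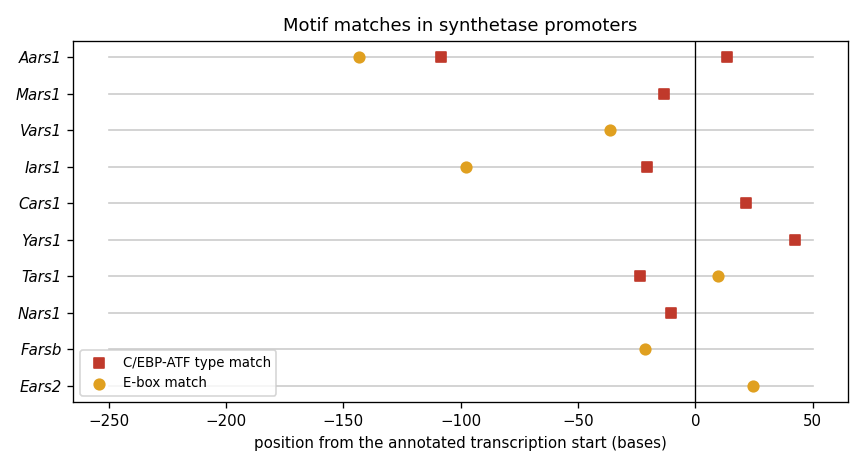
Position from the annotated start (x axis, bases) of matches to the C/EBP-ATF element (red squares) and the E-box (yellow circles) in the 10 synthetase promoters that hold either, ordered by log2 fold change from Aars1 at the top to Farsb, with the untested Ears2 below. The element lies within 30 bases before the start in Mars1, Iars1, Tars1 and Nars1.

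Of 25 listed genes of the amino acid stress response 18 were tested, of which 1 was called higher (5.56%) and 2 lower (11.1%), with a median log2 fold change of 0.08. These shares were near or below those over all genes tested, 7.00% higher and 17.0% lower. Atf4 itself was 105, 114 and 127 CPM in mild-hypo-OPCs and 145, 163 and 177 CPM in standard OPCs, with no overlap. It fell by 0.48 on the log2 scale (SE 0.08, n = 6 per group), with an adjusted p of 0.000333 by edgeR. The call was lost with library size alone (log2 fold change -0.04, adjusted p = 0.762, edgeR) and with the log2 total count as a covariate (a value of -0.23, adjusted p = 0.808, edgeR). The amino acid transporter gene Slc7a5 rose by 0.27 (adjusted p = 0.0184, edgeR) and the serine synthesis gene Psph fell by 0.42 (adjusted p = 0.0114, edgeR). Of 13 synthetase genes often listed as Atf4 targets, 12 had positive values, with a median of 0.18. Of these 13, 3 were called higher (23.1%, against 7.00% of all genes tested) and none lower, the 3 being those already described. The list was chosen with earlier results of these data known. Over all 19 cytosolic synthetases 13 values were positive and 6 negative, with a median of 0.12. Whether the listed genes differed from the other synthetases was not tested. The level of the Atf4 protein, which is set largely by translation, was not measured.

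Log2 fold changes over the whole table differed with the length of the gene. Genes were divided into 5 equal groups by annotated span (introns included, from a RefSeq table of GRCr8). In the shortest group, of 257 to 8497 bp, the median log2 fold change was -0.26 and 37.3% of genes were called lower, against medians of -0.05 to 0.08 and 5.56% to 21.1% called lower in the 4 longer groups. Atf4, at 2059 bp, is among the shortest genes. With the trend on span removed, a step chosen after seeing the data, its log2 fold change was -0.09 (adjusted p = 0.469, edgeR). The trend was fitted to these same fold changes, and whether span has a part in the Atf4 value was not tested. Of the tested synthetases, only Qars1 was in the shortest group, and 18 of the 19 cytosolic genes lay in the next 3. With this trend removed Aars1 and Mars1 stayed called, Vars1 was added, and Wars1, at 0.22 in place of 0.24, just missed the threshold (adjusted p = 0.0669, edgeR).

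**Figure D5:**
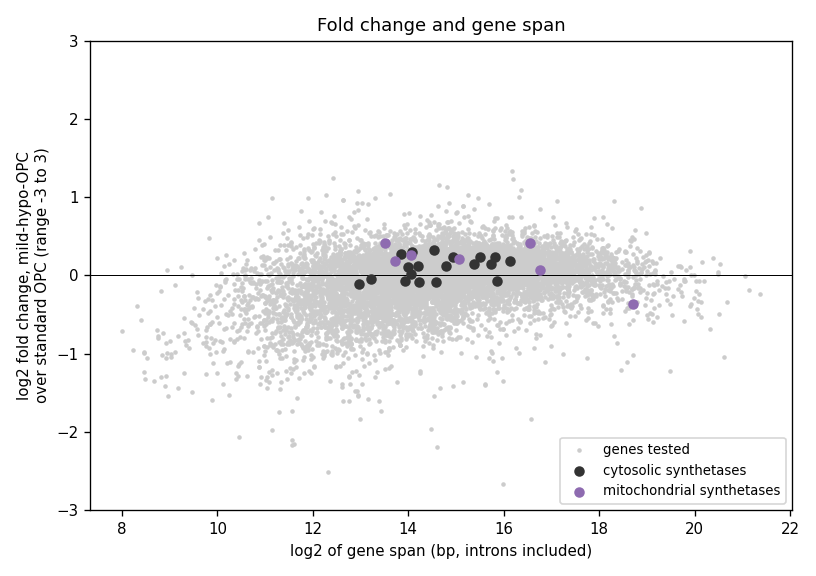
Log2 fold change (y axis, -3 to 3, the few genes beyond it not drawn) against log2 of the gene span in bp (x axis) for the tested genes with a span (grey), the 19 cytosolic synthetases (black) and the 7 mitochondrial ones (purple). The grey cloud falls below 0 at short spans, and the synthetases lie mostly at intermediate spans.

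Of 9 genes for related charging functions 6 were tested, 0 were called higher and 2 lower (median log2 fold change 0.01), against 7.00% and 17.0% of all genes tested. These were Gatc, a subunit of the amidotransferase that makes mitochondrial glutaminyl-tRNA, which fell by 0.53 (adjusted p = 0.00374, edgeR), and Mtfmt, which formylates the mitochondrial initiator methionyl-tRNA and fell by 0.75 (adjusted p = 0.0132, edgeR). Of 5 genes for quality control of charging 3 were tested, with 0 called higher and 2 lower (again beside 7.00% and 17.0% of all genes tested). Dtd1 and Dtd2, which remove D-amino acids or wrongly attached residues from tRNAs, fell by 0.61 and 0.62 (adjusted p = 0.00369 and 0.0251, edgeR). The Dtd2 call was lost on leaving out any of 5 libraries and with the trend on span removed (adjusted p = 0.132, edgeR).

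The genes that make the tRNA substrates were called lower more often than higher, as was the case over all genes tested (17.0% lower, 7.00% higher). Of 24 genes for tRNA processing and export, 19 were tested, of which 1 was called higher and 6 lower, with a median of -0.30 (31.6% lower). The tRNA exporter Xpot was the one that rose, by 0.30 (adjusted p = 0.0347, edgeR), and among those that fell were parts of the RNase P enzymes of mitochondria (Hsd17b10, by 0.67) and the nucleus (Pop5 by 1.07, Pop7 by 0.61 and Rpp30 by 0.52). Of 48 tRNA modification genes 32 were tested, 0 were called higher and 5 lower (15.6%, median -0.04), those with the lowest adjusted p being Urm1 and Lage3, which fell by 0.67 and 0.79. Of 22 genes for RNA polymerase III and its factors, which transcribe tRNA genes, 19 were tested, 1 was called higher and 5 lower (26.3%, median -0.06). Polr3a, which encodes the largest subunit, rose by 0.38, whereas Polr3gl fell by 0.72. With the trend on span removed, Pop5, Rpp30, Urm1 and Polr3gl remained called lower, whereas Hsd17b10, Pop7 and Lage3, of 1042 to 2462 bp, had values of -0.32, -0.08 and -0.33 and did not (adjusted p = 0.153, 0.74 and 0.0862, edgeR). Xpot and Polr3a kept similar values of 0.26 and 0.35 but no longer passed (adjusted p = 0.0672 and 0.0686, edgeR). The Pop5 call was also lost without standard OPC replicate 3, and the Xpot and Polr3a calls on leaving out any of 4 and 6 libraries.

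Factors of mitochondrial translation, which use the products of the mitochondrial synthetases, included 2 of 7 tested genes called higher, where 7.00% of all genes tested were. Of the 10 listed genes only these 7 were tested, and 0 of the 7 were called lower, where 17.0% of all genes tested were. The median log2 fold change of the 7 was 0.16. Gfm2, a factor that recycles mitochondrial ribosomes, rose by 0.45 (adjusted p = 0.0361, edgeR), and Mrrf, its partner in recycling, rose by 0.36 (adjusted p = 0.0454, edgeR). Both calls were lost when any of several single libraries was left out, 7 of 12 for Gfm2 and 7 of 12 for Mrrf, and with the trend on span removed (0.41 and 0.30, adjusted p = 0.0563 and 0.094, edgeR). The elongation factor gene Tufm had a value of 0.25 and did not pass (adjusted p = 0.204, edgeR).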

How the data were processed

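Bulk RNA-seq of 12 OPC libraries was analysed, grouped by the labels. The authors deposited raw counts per Ensembl gene, one column per library. Per the submitters' processing notes and the study's methods, reads were trimmed with Trimmomatic 0.36, checked with FastQC 0.11.9, aligned to mRatBN7.2 with STAR 2.7.9a and quantified with RSEM 1.3.3. RSEM splits reads shared by similar genes as an estimate, and how its estimates became whole numbers is not given in the sources used here.

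Counts were scaled by TMM and tested with edgeR 4.0.16 (glmQLFit, glmQLFTest) in R 4.3.3, over genes above 10 CPM (before TMM scaling) in at least 1 library, with Benjamini-Hochberg adjustment over all genes tested and a threshold of 0.05. The study's methods state the same scaling and filter with limma-voom, used here as an alternative (limma 3.58.1), as was DESeq2 1.42.0. Intervals cover 95%. The procedure was tested on simulated data. Set levels are mean log2 CPM with a prior count of 2. CPM is not scaled by transcript length, so levels were not compared between genes.

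The members, related gene lists and motifs were chosen with earlier results of these data known. Called members, and in each set the uncalled members with the largest change in each direction and the most counts, were given in full, other members by value or range, and up to 4 called genes per list and direction were open to naming. Gene spans and promoters came from RefSeq (GRCr8), not the assembly used for alignment. Replicate libraries differed by more than counting noise (chi-square per degree of freedom 3.97 to 27.2). Some items are not reported here.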

Additional observations from a re-analysis of the deposited data

Results flagged for a closer look

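In 52 groups of 6 libraries (26 tested synthetases in each condition), 2 held a library set apart from the rest of its group by Dixon's criterion, which compares the gap to the next library with the group's range. Chance flags about 1 in 20 such groups. Both were mild-hypo-OPC replicate 6. Farsa, for the alpha subunit of phenylalanyl-tRNA synthetase, was 48.2 CPM there, above the next library at 41.4 CPM and the lowest at 40.1 CPM. Hars1, for histidyl-tRNA synthetase, was 49.7 CPM there, below the next at 55.1 CPM and the highest at 56.7 CPM. Neither gene was called in the reported analysis.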

How the results depend on the processing

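No alternative called a synthetase lower, where 0.481% to 18.7% of all genes tested were called lower. The count of cytosolic synthetases called higher, 3 as reported, was 19 with library size alone, 6 with upper-quartile factors, 1 after thinning, and 0 with the log2 total count as a covariate or with replicates 1 to 3 only, and the count of mitochondrial ones, 0 as reported, was 6 with library size alone and 1 with upper-quartile factors, rows with a symbol only or at least 10 counts in every library, and 0 to 1 on leaving out 1 library. Over all genes tested, 7.00% were called higher as reported, 61.7% with library size alone, 12.7% with upper-quartile factors and 4.34% after thinning. That share was 0% with the covariate and 0.62% with replicates 1 to 3 only. It was 8.91% over rows with a symbol only and 8.43% with at least 10 counts in every library. The cytosolic median log2 fold change, 0.12 as reported, was 0.56 with library size alone, 0.19 with upper-quartile factors, 0.02 with the covariate and 0.11 to 0.18 on leaving out 1 library. The mitochondrial median, 0.21 as reported, was 0.65 with library size alone, 0.34 with replicates 4 to 6 only, 0.09 with edgeR's filterByExpr and 0.05 after thinning, where the last 2 tested more members. Values that changed sign were, with the covariate, Eprs1 -0.25, Iars1 -0.28, Lars1 -0.19, Nars1 -0.20, Tars1 -0.11, Gars1 -0.02, Iars2 -0.22, Xpot -0.05, Farsb 0.20, Sars1 0.16, Qars1 0.06, Rars1 0.05, Fars2 0.14, Hsd17b10 0.23, Gtf3a 0.08, and Psph and Tprkb 0.00, with library size alone, Farsa 0.38, Farsb 0.36, Kars1 0.36, Sars1 0.36, Rars1 0.35, Qars1 0.33, Fars2 0.06, Polr3k 0.12, Psph 0.02 and Tprkb 0.00, with replicates 4 to 6 only, Nars2 -0.35, Hars1 -0.08, Kars1 0.01 and Farsa 0.05, with replicates 1 to 3 only, Rars1 0.02, after thinning, Hars1 -0.12 and Farsa 0.03, and Farsa 0.02 with upper-quartile factors. On removal of the trend on gene span, chosen after seeing the data, Farsa was 0.09 and Qars1 0.06. On leaving out 1 library, Hars1 ranged from -0.02 to 0.09 and Nars2 from -0.06 to 0.21. The cause of these changes was not tested. With the replicate number as a block (replicate block), 2 cytosolic synthetases were called higher, Aars1 and Mars1, as Wars1 was lost (adjusted p = 0.0593, edgeR), and 572 genes were higher and 1471 lower. The numbers did not pair the libraries, since deviations of same-numbered libraries correlated at over 0.1 in 2 of 6 pairs (range -0.28 to 0.30), and 1 of 6 mild-hypo-OPC libraries correlated best with its own number. Depth limits the mitochondrial set, and it differed with the condition in every library.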
